A study of Mus musculus with 15 samples.

Results

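The 10 genes described here act with or on Runx transcription factors, and they were followed across all 15 arrays of the series. They are Runx1 and Runx3, their DNA-binding partner Cbfb, the oestrogen receptor gene Esr1, the corepressor genes Runx1t1, Cbfa2t2, Cbfa2t3, Tle1 and Tle3, and the kinase gene Hipk2. Members were chosen by gene symbol, and every probe set that the platform annotation gives to 1 of these symbols was kept. This gave 39 probe sets of 45101 on the array, for 10 of the 18193 genes with a symbol. Runx1 had 6 probe sets, Runx3 2, Cbfb 1, Esr1 3, Runx1t1 6, Cbfa2t2 3, Cbfa2t3 4, Tle1 2, Tle3 4 and Hipk2 8. For Runx2 the platform annotation used here names no probe set, so its insert could not be read.

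The cells were NIH3T3, an immortalised line of mouse fibroblasts, and all of them had been transduced with the retroviral vector pBabe-puro. The vector was empty (2 arrays without and 2 with 4-hydroxytamoxifen, 4-OHT), or it carried RUNX1-ER, an inducible construct of human RUNX1 (2 arrays uninduced and 2 induced with 4-OHT). Other lines carried mouse Runx1, mouse Runx2 or mouse Runx3 (2 arrays each) or human RUNX1 (1 array). Cultures stood for 7 days to confluence and then had 0.2% ethanol, alone or with 4-OHT, for 24 h. The labels give 0.1 mM for 4-OHT, leave unsaid which of these treatments the constitutive lines had, and do not say whether a line was a clone or a pool or how strongly the viral promoter drove each insert. They also do not say which species' receptor the ER tag comes from. The question these 10 genes bear on is whether the inserted genes can be seen on the arrays, and how the cells' own Runx genes and the partners of Runx proteins stood in each group.

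Runx proteins bind DNA through the runt domain, and binding is strengthened by Cbfb, which does not touch DNA itself. At the promoter they recruit coactivators or corepressors. The Groucho family proteins Tle1 and Tle3 bind the C-terminal end of Runx proteins and repress transcription. The ETO family (Runx1t1, Cbfa2t2, Cbfa2t3) consists of corepressors that recruit histone deacetylases, and Runx1t1 is the partner of RUNX1 in a common leukaemia fusion. Hipk2 is a nuclear kinase that phosphorylates Runx1 and its coactivator p300. An ER tag is the ligand-binding domain of the oestrogen receptor, which holds a fused protein inactive until a ligand such as 4-OHT is added. Runx genes have a distal and a proximal promoter, and Runx sites in the distal promoter are known as points where Runx proteins can act on Runx genes.

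Because the levels of the cells' own Runx genes are described below, the promoters of Runx1 are shown first. Sequences are from RefSeq (GRCm38.p6), and 9 of the 10 members matched 14 promoter windows that reach from 250 bases before to 50 bases after an annotated start. No window matched Runx1t1. Runx1 lies on the minus strand of chromosome 16, from 92601466 to 92826074. The 250 bases before its distal start (chr16:92826075-92826324, minus strand) and its proximal start (chr16:92697330-92697579, minus strand) hold neither of the core Runx letters searched for, TGTGGT and TGCGGT, on either strand.
Runx1, before the distal start: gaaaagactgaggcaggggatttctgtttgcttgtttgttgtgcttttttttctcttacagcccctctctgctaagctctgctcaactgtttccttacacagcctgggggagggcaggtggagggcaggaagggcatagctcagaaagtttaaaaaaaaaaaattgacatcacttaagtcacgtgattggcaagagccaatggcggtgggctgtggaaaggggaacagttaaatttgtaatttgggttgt
Runx1, before the proximal start: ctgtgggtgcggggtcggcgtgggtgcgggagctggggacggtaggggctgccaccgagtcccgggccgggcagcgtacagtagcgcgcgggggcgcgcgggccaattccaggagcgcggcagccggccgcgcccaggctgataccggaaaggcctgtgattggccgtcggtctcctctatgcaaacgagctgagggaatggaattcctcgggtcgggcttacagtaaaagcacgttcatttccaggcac

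Just after the distal start of Runx1 stand 2 copies of TGTGGT in the opposite orientation (ACCACA), at positions 29 and 37 when the start is counted as the first base. They are part of a run of 16 bases with copies 8 bases apart. This run was picked after the windows had been read. It was found in 4 of 32851 windows, those of Runx1, Runx2, Runx3 and Gm16225, whose window covers the Runx3 site on the other strand. The stretches are printed to show that the 3 Runx genes share the run letter for letter, and capitals mark it. They lie at chr16:92826025-92826054 (minus strand) for Runx1, chr17:44814583-44814612 (minus strand) for Runx2 and chr4:135120503-135120532 (plus strand) for Runx3.
Runx1, after the distal start: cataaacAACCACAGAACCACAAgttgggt
Runx2, after the start: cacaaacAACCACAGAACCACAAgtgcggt
Runx3, before the distal start: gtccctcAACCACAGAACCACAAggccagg

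In Runx3 the copies lie at −134 and −126 from the distal start instead. The 250 bases before that start (chr4:135120395-135120644, plus strand) are given with the 2 copies of ACCACA in capitals.
Runx3, before the distal start, whole: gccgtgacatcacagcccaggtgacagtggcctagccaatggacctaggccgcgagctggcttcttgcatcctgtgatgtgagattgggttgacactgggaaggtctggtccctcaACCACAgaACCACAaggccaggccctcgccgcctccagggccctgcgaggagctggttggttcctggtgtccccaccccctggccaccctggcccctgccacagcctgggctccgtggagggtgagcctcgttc

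Of the other members, Hipk2 had 1 copy of ACCACA at −21 in its second window, shown in capitals below (chr6:38837315-38837344, minus strand), and Cbfa2t3 had 1 copy of ACCGCA, the reverse complement of TGCGGT. The windows of Cbfb, Esr1, Cbfa2t2, Tle1 and Tle3 held neither. Across all 32851 windows of the same length, 16.8% held TGTGGT or its reverse complement, 1.81% held it at least 2 times, and 6.45% held TGCGGT or its reverse complement. A match of letters is a description and not a site shown to be bound.
Hipk2, before the start of the second window: gcttcatagcccACCACAgatagcatcaca

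Values are RMA log2 levels, so a difference of 1 is a doubling, and they were tested with limma over all 45037 probe sets that are not manufacturer controls, with the Benjamini-Hochberg adjusted p held to 0.05. A level says nothing against the level of another probe set. RMA compresses differences between dim probe sets, and only 11 of the 39 member probe sets had a mean above 5 over the 15 arrays. Array medians lay between 3.69 and 3.75. Arrays correlated with each other at 0.986 to 0.997, and 4 of the 14 numbered arrays were closest to an array of another group. The single human RUNX1 array stood apart: its highest correlation with any array was 0.991, against at least 0.994 between replicates, and its 13396 brighter probe sets sat at a median of −0.11 log2 against vector (−0.04 over all). All 8 fibroblast markers had means above 5 (7.94 to 13.2), with mean levels of 11.3 to 11.6 across arrays. None of 5 haematopoietic markers (mean level 3.85 to 4.25 across arrays) and none of 4 endothelial ones (3.29 to 3.50) had a mean above 5, and 1 of 4 epithelial ones did, Epcam at 5.03. The mean level of these 4 varied the most, from 3.83 to 4.90 across arrays, with Krt8 between 3.98 and 6.94 and Cdh1 between 2.81 and 4.42. In such bulk RNA, fewer cells with a transcript and less of it per cell cannot be told apart.

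Of the 6 Runx1 probe sets, 2 were far higher in the cells with the mouse Runx1 insert. Whether they read the insert, the gene of the cells or both was not tested. Probe set 1427650_a_at read 9.11 and 9.30 on the Runx1 line arrays, against 4.56 and 4.75 in vector cells. The 13 arrays of all other groups lay between 4.45 and 4.88, so no other group came near. Probe set 1452530_a_at read 7.25 and 7.21 in the Runx1 line, against 4.26 and 4.31 in vector cells and 4.12 to 4.36 over all 13 other arrays. The log2 changes were 4.55 (SE 0.12, 23.5-fold, limma adjusted p = 2.77e-10) and 2.94 (SE 0.09, 7.70-fold, limma adjusted p = 1.32e-09), which ranked first and second of all probe sets in that comparison. They stayed at 4.46 to 4.65 and 2.92 to 2.97 when any of the 4 arrays was left out. In this comparison 4 of the 39 member probe sets were called, 2 higher (these) and 2 lower, where 0.928% of all probe sets were called, 0.540% higher and 0.389% lower.

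The lines with human RUNX1 did not show on these probe sets. On the human RUNX1 array 1427650_a_at read 4.69, and on the 4 RUNX1-ER arrays it read 4.63 to 4.88, within or next to the 4.56 to 4.78 of the 4 vector arrays. Against vector cells the changes were 0.04 (95% interval −0.28 to 0.35, limma adjusted p = 0.952) for human RUNX1 and 0.13 (−0.13 to 0.38, limma adjusted p = 0.917) for uninduced RUNX1-ER. Against the mouse Runx1 line the human RUNX1 array was lower by a log2 change of −4.52 on this probe set and −2.87 on 1452530_a_at (limma adjusted p = 4.38e-09 and 2.53e-08). Those are 2 of 4 member calls in that comparison, 1 higher and 3 lower, where 2.39% of all probe sets were called, 0.877% higher and 1.51% lower. Which part of the gene or of its untranslated ends each probe set reads is not known here, so the lack of signal in a line checks nothing about its insert.

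**Figure D1:**
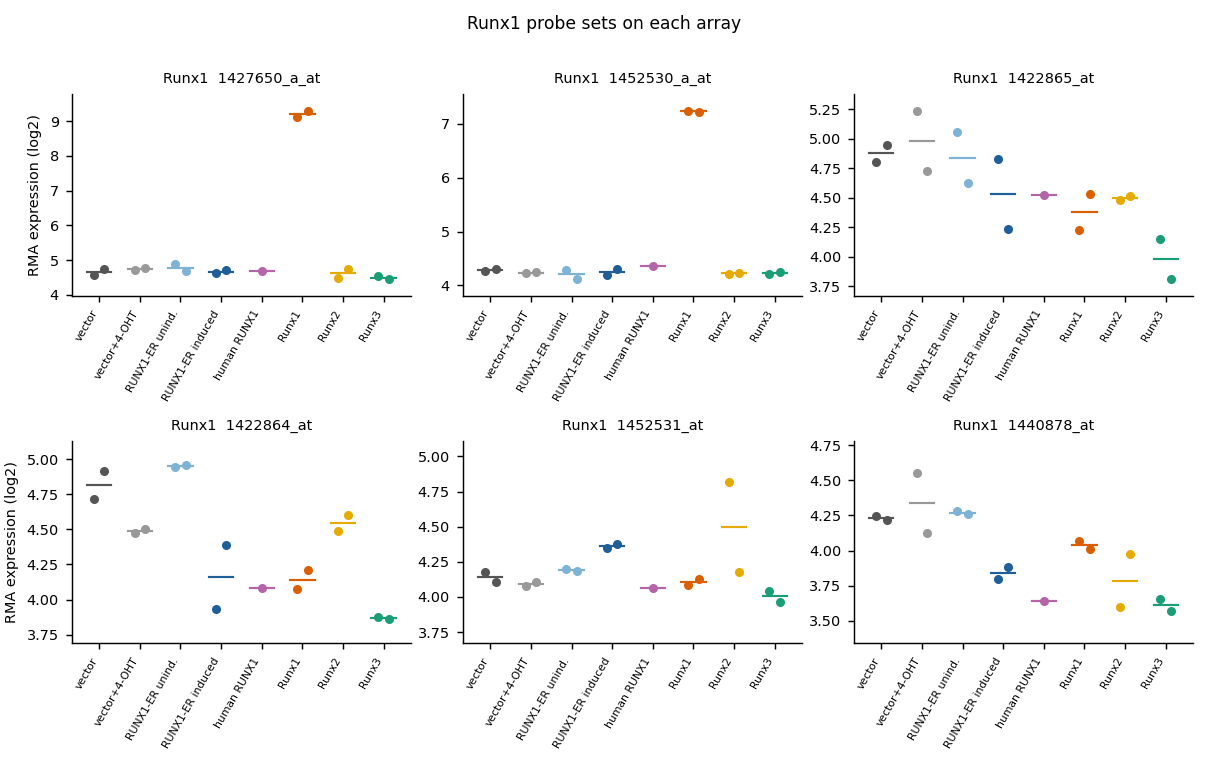
RMA log2 level of the 6 Runx1 probe sets (y axis) on each of the 15 arrays by group (x axis), with 1 point per array and a bar at the group mean. The first 2 panels show the Runx1 line alone at 9.11 to 9.30 and 7.21 to 7.25, while 1422864_at sits lowest in the Runx3 line at 3.86 to 3.87.

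Of the other 4 Runx1 probe sets, 3 were lower than in vector cells in at least 1 constitutive line. Probe set 1422864_at read 4.72 and 4.92 in vector cells and was lower on each of the 7 arrays of the constitutive lines. It read 4.49 and 4.60 with Runx2, 4.08 and 4.21 with Runx1, 4.09 with human RUNX1 and 3.87 and 3.86 with Runx3. The fall passed in the Runx3 line (log2 change −0.95, SE 0.13, limma adjusted p = 0.000481), in the Runx1 line (−0.68, SE 0.13, limma adjusted p = 0.0236) and on the human RUNX1 array (−0.73, SE 0.16, limma adjusted p = 0.0205). On the human RUNX1 array 5 member probe sets were called, 1 higher and 4 lower, where 4.31% of all probe sets were called, 1.48% higher and 2.84% lower. In the Runx2 line the change was −0.27 (95% interval −0.55 to 0.01, limma adjusted p = 0.526). These comparisons share the same 2 vector arrays. In fits of the compared arrays alone the Runx3 value passed (limma adjusted p = 0.00742), the Runx1 line value missed (0.0801), and the human RUNX1 value missed too. The Runx3 value passed whichever of its 4 arrays was left out (limma adjusted p 0.00283 to 0.0117). The Runx1 line value missed the threshold when any of its 4 arrays was left out (0.0785 to 0.302). The human RUNX1 value missed without vector replicate 2 (0.109) and with arrays centred on their brighter probe sets (−0.59, 0.0657).

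Vector cells with 4-OHT read 4.47 and 4.50 on this probe set, a change of −0.33 from those without it (limma adjusted p = 0.775). Taken against these arrays, the Runx1 line changed by −0.34 (limma adjusted p = 0.302) and the human RUNX1 array by −0.40 (limma adjusted p = 0.219), and neither passed. The Runx3 line still passed against vector cells with 4-OHT (−0.62, limma adjusted p = 0.0105). The Runx2 line, lower than vector cells without 4-OHT, had a mean 0.06 above that of vector cells with 4-OHT, and these arrays overlapped. Since the labels do not say which of the 2 vector groups matches the constitutive lines, both values of each line stand. Between lines, Runx3 cells stood below Runx2 cells, with a log2 change of −0.68 (SE 0.13, limma adjusted p = 0.0174), a call lost when any of those 4 arrays was left out (0.0661 to 0.118). In this comparison 2 member probe sets were called, 1 higher (Hipk2, below) and 1 lower, where 1.79% of all probe sets were called, 0.868% higher and 0.917% lower. Runx3 against Runx1 gave −0.28 (95% interval −0.56 to 0.01, limma adjusted p = 0.392).

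A pair of further Runx1 probe sets passed in the Runx3 line. Probe set 1422865_at read 4.15 and 3.81 there against 4.81 and 4.95 in vector cells (log2 change −0.90, SE 0.21, limma adjusted p = 0.0255). Probe set 1440878_at read 3.66 and 3.57 against 4.25 and 4.22 (−0.62, SE 0.14, limma adjusted p = 0.0182). So 3 of 39 member probe sets were called in the Runx3 line, all of them Runx1 and all lower, where 5.10% of all probe sets were called, 3.07% lower. The first missed without either vector array or without Runx3 replicate 2 and the second when any of the 4 arrays was left out (highest limma adjusted p 0.232 and 0.137). In the other constitutive lines these 2 probe sets changed by −0.19 to −0.59, and none of those values passed against vector cells without 4-OHT. On the human RUNX1 array 1440878_at did pass, lower, against vector cells with 4-OHT and against the mean of all 4 vector arrays. The sixth, 1452531_at, lay between 3.97 and 4.38 on 14 arrays and at 4.82 on Runx2 replicate 1, and it passed in no comparison. Averaged over all 6 probe sets, Runx1 was lower in the Runx3 line by a log2 change of −0.47 (limma adjusted p = 0.00228). Among the epithelial markers, Krt8 and Cdh1 read higher in the Runx3 line, and Epcam and Krt18 differed less. Krt8, a keratin, read 6.50 and 6.94 there against 3.98 and 4.03 in vector cells. Cdh1, an adhesion protein, read 4.42 and 4.01 against 2.93 and 2.81. Epcam read 5.00 and 5.00 against 5.00 and 4.94, and Krt18 3.66 and 3.63 against 3.54 and 3.54. Krt8 was not raised in the Runx3 line alone: it read 4.94 and 5.00 with Runx2, 4.60 and 4.18 with Runx1 and 5.61 with human RUNX1. In vector cells with 4-OHT it read 4.07 and 4.74. The part of these markers in the values of the Runx3 line was not tested.

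Probe set 1422864_at was also lower after induction of RUNX1-ER. It read 4.94 and 4.96 in uninduced cells, the highest of all arrays, and 3.93 and 4.39 after 4-OHT. The log2 change was −0.79 (SE 0.13, limma adjusted p = 0.00849), the only call among the 39 member probe sets, where 0.950% of all probe sets were called, 0.402% lower. It missed without induced replicate 1 (−0.56, limma adjusted p = 0.106) and without uninduced replicate 2 (−0.78, 0.0818). Beyond the change that 4-OHT made in vector cells it was −0.46 (SE 0.18, limma adjusted p = 0.507). Against vector cells with 4-OHT the induced cells differed by −0.33 (limma adjusted p = 0.294). For 1440878_at the same values were −0.43, −0.54 and −0.50 (limma adjusted p = 0.274, 0.444 and 0.0979). None of the 39 passed for induction beyond 4-OHT with limma, where 0.329% of all probe sets did. An unadjusted limma p under 0.05 was found for 10 of the 39 and for 3871 of all probe sets tested. In order of level, 1422864_at ran from uninduced RUNX1-ER through vector, Runx2, vector with 4-OHT, induced RUNX1-ER, Runx1 and human RUNX1 to Runx3. Arrays of neighbouring groups overlapped for Runx2 with vector with 4-OHT, induced RUNX1-ER with Runx1, and Runx1 with human RUNX1.

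Runx3 itself gave no sign of its insert. Its brighter probe set, 1421467_at, read 4.46 and 3.96 in the Runx3 line against 4.54 and 4.35 in vector cells (log2 change −0.24, 95% interval −0.56 to 0.08, limma adjusted p = 0.557). The arrays of the groups overlapped, and the 2 Runx3 replicates were farther apart than any other pair on this probe set. Probe set 1440275_at read 3.24 and 3.25 against 3.14 and 3.17 (0.09, limma adjusted p = 0.807). Neither passed in any of the 13 comparisons, and whether they fall inside the insert is not known here.

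Cbfb, the partner that stabilises Runx proteins on DNA, passed in none of the 13 comparisons with limma. Its probe set read 9.40 and 9.52 in vector cells, 9.49 and 9.48 with Runx1, 9.52 and 9.48 with Runx2, 9.59 and 9.52 with Runx3 and 9.48 with human RUNX1. In RUNX1-ER cells it read 9.46 and 9.54 uninduced and 9.52 and 9.49 induced, and in vector cells with 4-OHT 9.39 and 9.28. Group means spanned 0.22 log2 units, from 9.33 in vector with 4-OHT to 9.55 in Runx3. The 95% interval of the change was −0.10 to 0.29 for the Runx3 line, −0.16 to 0.22 for Runx1, −0.15 to 0.23 for Runx2 and −0.18 to 0.20 for induction. For 4-OHT in vector cells it was −0.32 to 0.07, and for induced RUNX1-ER cells against vector cells with 4-OHT −0.02 to 0.37.

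**Figure D2:**
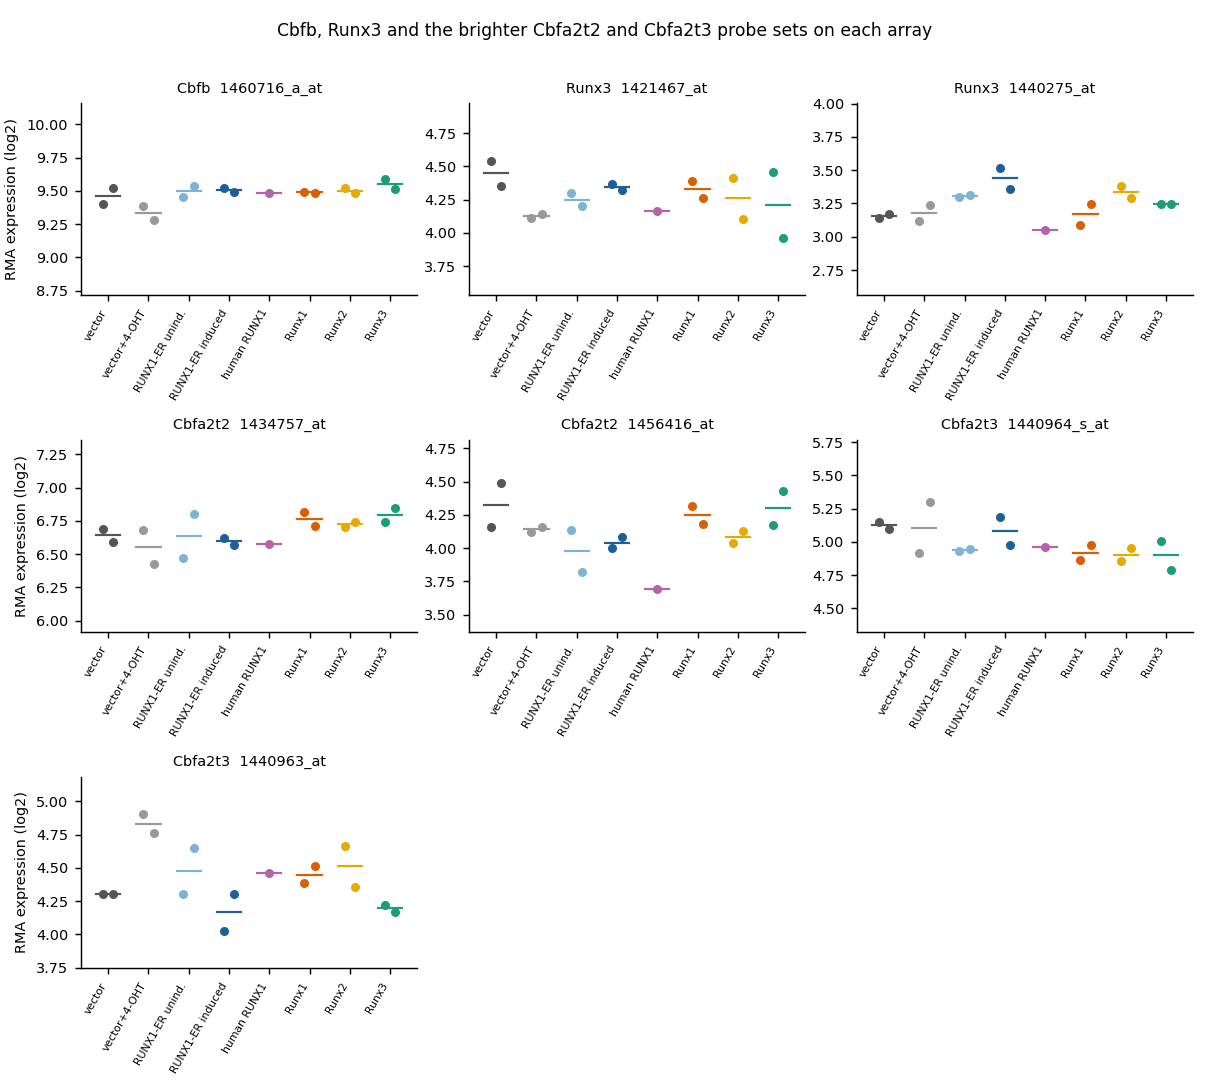
RMA log2 level of Cbfb, both Runx3 probe sets and the brighter Cbfa2t2 and Cbfa2t3 probe sets (y axis, range set per panel) on each of the 15 arrays by group (x axis), with a point per array and a bar at the group mean. Cbfb stays between 9.28 and 9.59 on every array, and Cbfa2t3 1440963_at is highest in vector cells with 4-OHT, at 4.76 and 4.90.

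Of 3 Esr1 probe sets, 1 was high in the cells with the ER tag. Whether it reads the tag, the gene of the cells or both was not tested. The labels describe 1 RUNX1-ER line, so a feature of that line cannot be told apart from these. Probe set 1421244_at read 7.02 and 6.01 in uninduced and 5.92 and 5.74 in induced RUNX1-ER cells. All 11 arrays of the other groups lay between 3.76 and 4.72, so the 4 RUNX1-ER arrays did not overlap with any. Against vector cells (3.86 and 4.26), the uninduced cells were higher by 2.45 (SE 0.25, 5.48-fold, limma adjusted p = 0.00548). This is the only member call in that comparison, where 4 of 45037 probe sets, 0.00888%, were called, 0.00444% higher. It missed without vector replicate 1 (2.25, limma adjusted p = 0.183) and without vector replicate 2 (2.65, 0.0549), and it missed in a fit of those 4 arrays alone (2.45, 0.661). Induced cells were higher than vector cells with 4-OHT by 1.50 (SE 0.25, 2.82-fold, limma adjusted p = 0.00547), which missed without induced replicate 1 (0.0759).

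Between uninduced and induced RUNX1-ER cells the Esr1 probe set changed by −0.68 (95% interval −1.21 to −0.15, limma adjusted p = 0.366), with induced replicates below both uninduced ones. Uninduced replicate 1 weighed heavily in it: without that array the change was −0.17 (limma adjusted p = 0.812), and without uninduced replicate 2 it was −1.19 (0.0134) and, beyond 4-OHT in vector cells, −1.47 (0.0331). The other Esr1 probe sets were not high in RUNX1-ER cells: 1435663_at lay between 2.81 and 3.27 on all 15 arrays and 1460591_at between 2.90 and 3.26 on 14. On the human RUNX1 array 1460591_at read 3.74 (log2 change against vector 0.57, SE 0.12, limma adjusted p = 0.0182), a call that missed without vector replicate 1 (0.118). Against the Runx1 line it was higher by 0.59 (limma adjusted p = 0.0243), which missed without either Runx1 array (0.0797 and 0.100). On that array 1421244_at read 4.72, the highest outside RUNX1-ER cells (0.66, limma adjusted p = 0.272).

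Runx1t1, the ETO corepressor, had its highest values in uninduced RUNX1-ER cells. Probe set 1437784_at read 5.87 and 5.83 in uninduced RUNX1-ER cells, against 4.64 and 5.06 in vector cells, and 5.09 and 5.26 after induction. On the 10 arrays of the vector, Runx1, Runx2 and Runx3 groups it lay between 4.45 and 5.23, and on the human RUNX1 array at 4.77. The uninduced arrays were thus the highest of all 15. Probe sets 1444615_x_at (3.97 and 4.72, against 3.37 and 3.32 in vector cells), 1427640_a_at (4.07 and 4.07, against 3.54 and 3.47) and 1448785_at (4.03 and 4.30, against 3.76 and 3.58) were highest there as well. The remaining 2, 1440310_at and 1443788_at, differed from vector cells by −0.20 to 0.09 in all groups and did not share the pattern.

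For single probe sets none of these differences passed in the fit of all arrays. Uninduced RUNX1-ER against vector gave 1.00 (SE 0.17, limma adjusted p = 0.104), 1.00 (0.139), 0.57 (0.139) and 0.49 (0.469) for the 4 probe sets in that order. Induction gave −0.68, −0.76, −0.37 and −0.63 (limma adjusted p = 0.0901, 0.0867, 0.172 and 0.0517). Other settings brought calls: against the mean of 4 vector arrays 1437784_at and 1444615_x_at passed in uninduced cells (0.89 and 0.95, limma adjusted p = 0.0417 and 0.0434). On induction 1448785_at passed with the replicate number as a block (0.0352), with both ways of centring the arrays (0.0451 and 0.0429) and without uninduced replicate 1 (−0.76, 0.0413). Without that array 1444615_x_at, whose uninduced arrays lie far apart, passed for uninduced cells against vector (1.38, 0.00850) and on induction (−1.13, 0.00212). Averaged over its 6 probe sets and tested among all genes treated in this way, Runx1t1 was higher in uninduced RUNX1-ER cells by 0.49 (limma adjusted p = 0.0432) and lower after induction by a log2 change of −0.41 (0.0156). Beyond 4-OHT in vector cells this mean changed by −0.43 and did not pass (limma adjusted p = 0.120). Induced cells stood 0.10 (95% interval −0.26 to 0.46) from vector cells with 4-OHT on 1437784_at. The labels describe 1 RUNX1-ER line, so a feature of that line and an effect of the uninduced construct cannot be told apart.

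**Figure D3:**
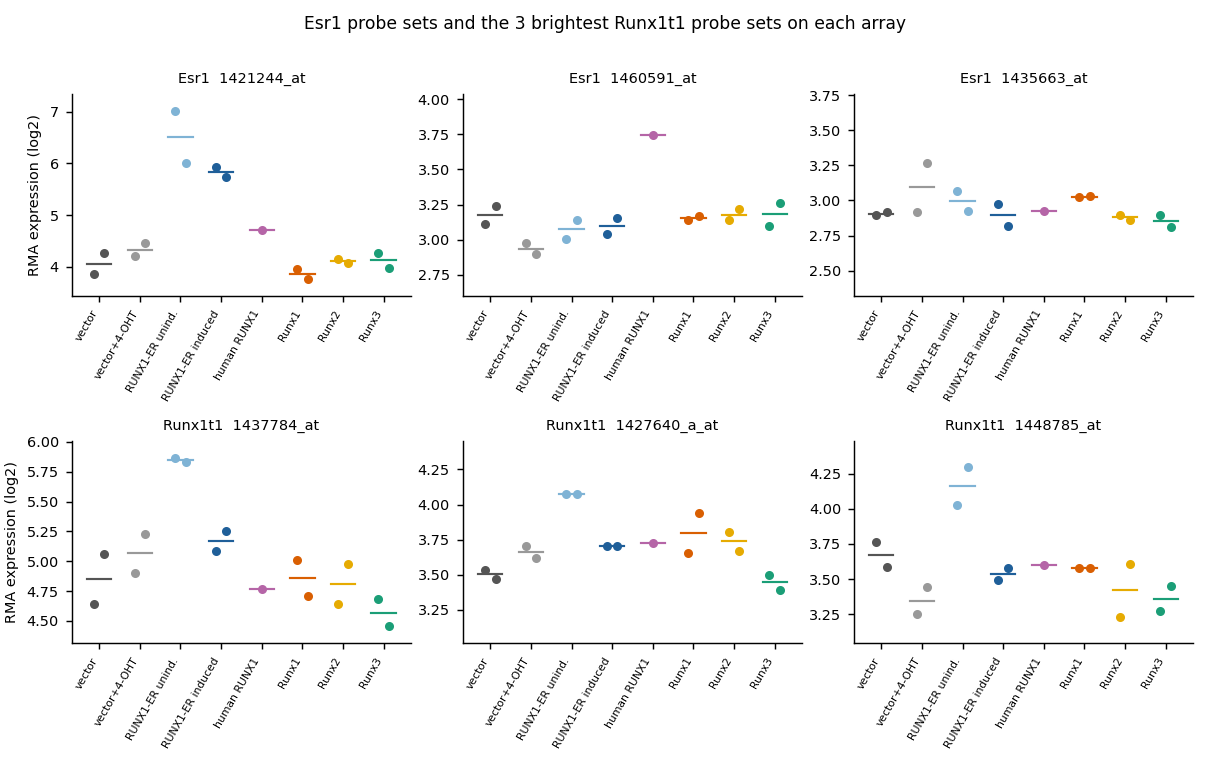
RMA log2 level of the 3 Esr1 and the 3 brightest Runx1t1 probe sets (y axis, range set per panel) on each of the 15 arrays by group (x axis), with a point per array and a bar at the group mean. Esr1 1421244_at is high only in RUNX1-ER cells (5.74 to 7.02 against 3.76 to 4.72 elsewhere), and Runx1t1 1437784_at is highest in uninduced RUNX1-ER cells at 5.83 and 5.87.

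The other ETO genes had 1 call each. The brightest Cbfa2t2 probe set, 1434757_at, read between 6.43 and 6.85 on all 15 arrays and passed nowhere. Probe set 1456416_at read 3.70 on the human RUNX1 array against 4.16 and 4.49 in vector cells (log2 change −0.63, SE 0.16, limma adjusted p = 0.0494), and missed without vector replicate 2 (0.221) and with each of the 8 other settings tried (0.0502 to 0.282). The brightest Cbfa2t3 probe set, 1440964_s_at, lay between 4.79 and 5.30. Probe set 1440963_at read 4.90 and 4.76 in vector cells with 4-OHT, 4.30 and 4.30 without it, and 4.03 and 4.30 in induced RUNX1-ER cells. It was lower in induced cells than in vector cells with 4-OHT by a log2 change of −0.67 (SE 0.14, limma adjusted p = 0.0232). The vector arrays with 4-OHT were the highest of all on this probe set, and against vector cells without 4-OHT the difference was −0.14 (limma adjusted p = 0.965). The call also missed without induced replicate 1 (0.248) and without either vector array with 4-OHT (0.109 and 0.0719).

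For 4-OHT alone in vector cells, none of the 39 member probe sets passed with limma (5 had an unadjusted p under 0.05), and 0% of all probe sets were called (2773 had an unadjusted p under 0.05). The members' median change was −0.04 and that of all probe sets −0.03. The largest member change was that of Cbfa2t3 1440963_at, 0.53 (95% interval 0.23 to 0.82, limma adjusted p = 0.643).

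Tle3, a Groucho corepressor, was higher in induced RUNX1-ER cells. Probe set 1449554_at read 4.34 and 4.17 there against 3.65 and 3.65 in vector cells with 4-OHT (log2 change 0.60, SE 0.12, 1.52-fold, limma adjusted p = 0.0232). Probe set 1419654_at read 4.52 and 4.37 against 3.81 and 4.00 (0.54, SE 0.12, 1.45-fold, limma adjusted p = 0.0434). With Esr1 and Cbfa2t3 these made 4 member calls, 3 higher and 1 lower, where 1.95% of all probe sets were called, 1.34% higher and 0.611% lower. The brightest probe set, 1419655_at, read 7.44 and 7.29 against 6.71 and 6.87, again without overlap (0.57, SE 0.14, limma adjusted p = 0.0618), and the fourth, 1458512_at, changed by 0.32. In some other settings 1419655_at passed, such as with the replicate number as a block. Averaged over its 4 probe sets, Tle3 was higher by 0.51 (limma adjusted p = 0.00774). That mean did not pass on induction (0.29, 0.204) or beyond 4-OHT in vector cells (0.43, 0.218). The calls of 1449554_at and 1419654_at missed when any of the 4 arrays was left out (limma adjusted p up to 0.224 and 0.311), and against vector cells without 4-OHT the values were 0.34 and 0.46 (0.396 and 0.129).

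On induction the same 3 Tle3 probe sets changed by 0.50, 0.36 and 0.35 (limma adjusted p = 0.0999, 0.341 and 0.462), and beyond 4-OHT in vector cells by 0.76, 0.43 and 0.43 (0.122, 0.512 and 0.586). In the Runx3 line they changed by 0.28, 0.27 and 0.39 (0.319, 0.356 and 0.175), and in the Runx2 line by 0.21, 0.24 and 0.25. On the human RUNX1 array 1449554_at read 4.39, the highest of all 15 arrays (0.48 against vector, limma adjusted p = 0.101). The other Tle3 probe sets stood nearer to vector cells on that array. There 1419655_at read 6.81 against 6.90 and 6.83, 1419654_at 4.12 against 4.12 and 3.85, and 1458512_at 3.69 against 3.65 and 3.91. Averaged over its 4 probe sets, Tle3 changed by 0.12 on that array. None of these passed. Against vector cells with 4-OHT, however, 1449554_at passed in the Runx3 line (0.54, 0.0178) and on the human RUNX1 array (0.74, 0.0181).

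Tle1, the other Groucho gene, had no call in the fit of all probe sets. Its probe set 1422751_at read 5.95 and 5.84 in the Runx1 line, lower than all 13 other arrays (6.04 to 6.79), a change of −0.48 from vector cells (SE 0.12, limma adjusted p = 0.119). With only probe sets above a mean of 5 tested, it passed there (0.0436) and was higher in Runx3 than in Runx1 cells (0.39, 0.0442). The other, 1434033_at, changed by −0.17 there and read highest on the human RUNX1 array, 6.63. With arrays centred on brighter probe sets, both Tle1 probe sets were higher on that array than in Runx1 cells (0.57 and 0.56, limma adjusted p = 0.0416 and 0.0275).

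Hipk2, the kinase of Runx1 and p300, was lower by 1 probe set in the Runx1 and Runx2 lines. On the single human RUNX1 array it was lower by the same probe set and by 1 more, 1425983_x_at (below). Probe set 1428433_at read 8.43 and 8.53 in vector cells and 8.54 and 8.34 with 4-OHT. It read 8.12 and 8.25 with Runx3, 8.03 and 7.92 with Runx1, 7.61 and 7.72 with Runx2 and 7.03 on the human RUNX1 array. All 7 arrays of the constitutive lines thus lay below all 4 vector arrays. It fell in the Runx2 line by 0.82 on the log2 scale (1.77-fold lower, SE 0.10, limma adjusted p = 0.000763), the only call among 39 member probe sets, where 1.37% of all were called, 0.879% lower. In the Runx1 line the change was −0.51 (SE 0.10, limma adjusted p = 0.0328) and on the human RUNX1 array −1.45 (SE 0.13, limma adjusted p = 3.17e-05). In the Runx3 line it was −0.30 (95% interval −0.52 to −0.08, limma adjusted p = 0.147).

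The Runx2 and human RUNX1 values still passed when any 1 of their replicated arrays was left out (limma adjusted p up to 0.0181 and 0.000620). In a fit of the compared arrays alone the human RUNX1 value missed (0.235). The Runx1 line value missed without each of its 4 arrays (0.114 to 0.331). Between lines, Hipk2 on the human RUNX1 array differed from Runx1 cells by −0.95 (SE 0.13, limma adjusted p = 0.00307), which passed without either Runx1 array (0.0126 and 0.0245). Hipk2 was higher in Runx3 than in Runx2 cells by 0.52 (SE 0.10, limma adjusted p = 0.0204), a call lost when any of the 4 arrays was left out (0.0527 to 0.178). Runx2 against Runx1 gave −0.31 (95% interval −0.53 to −0.09, limma adjusted p = 0.299). In that comparison and in Runx3 against Runx1, the 2 member calls were Runx1 1427650_a_at and 1452530_a_at, both lower, where 0.770% and 3.58% of all probe sets were called, 0.517% and 2.30% lower.

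In RUNX1-ER cells Hipk2 1428433_at read 8.57 and 8.68 uninduced and 8.23 and 8.15 induced, without overlap. The change on induction was −0.43 (SE 0.10, limma adjusted p = 0.0782), and beyond 4-OHT in vector cells it was −0.39 (limma adjusted p = 0.450). In order of level the groups ran from uninduced RUNX1-ER through vector, vector with 4-OHT, induced RUNX1-ER, Runx3, Runx1 and Runx2 to human RUNX1. Arrays overlapped between neighbours only for vector with vector with 4-OHT and for induced RUNX1-ER with Runx3.

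The 7 other Hipk2 probe sets followed in part. Probe set 1425983_x_at read 5.76 on the human RUNX1 array against 6.51 and 6.62 in vector cells (−0.80, SE 0.16, limma adjusted p = 0.0117), and missed without vector replicate 2 (0.0625). Probe set 1424863_a_at read 5.96 there against 6.53 and 6.71 (−0.66, limma adjusted p = 0.0565). Both read lower in the Runx1 and Runx2 lines too, by changes of −0.32 to −0.39 that did not pass. In the Runx3 line they changed by −0.06 and 0.03. Probe set 1448631_a_at read 6.75 on the human RUNX1 array, within 0.02 of the vector mean, and had its lowest arrays, 6.47 and 6.52, in the Runx1 line. The 4 dim ones, none above 4.46 on any array, passed nowhere. Averaged over all 8 probe sets, Hipk2 was lower on the human RUNX1 array by a log2 change of −0.40 (limma adjusted p = 0.0240) and changed by −0.19 and −0.21 in the Runx1 and Runx2 lines (0.431 and 0.249). Which transcript ends the probe sets read is not known here.

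**Figure D4:**
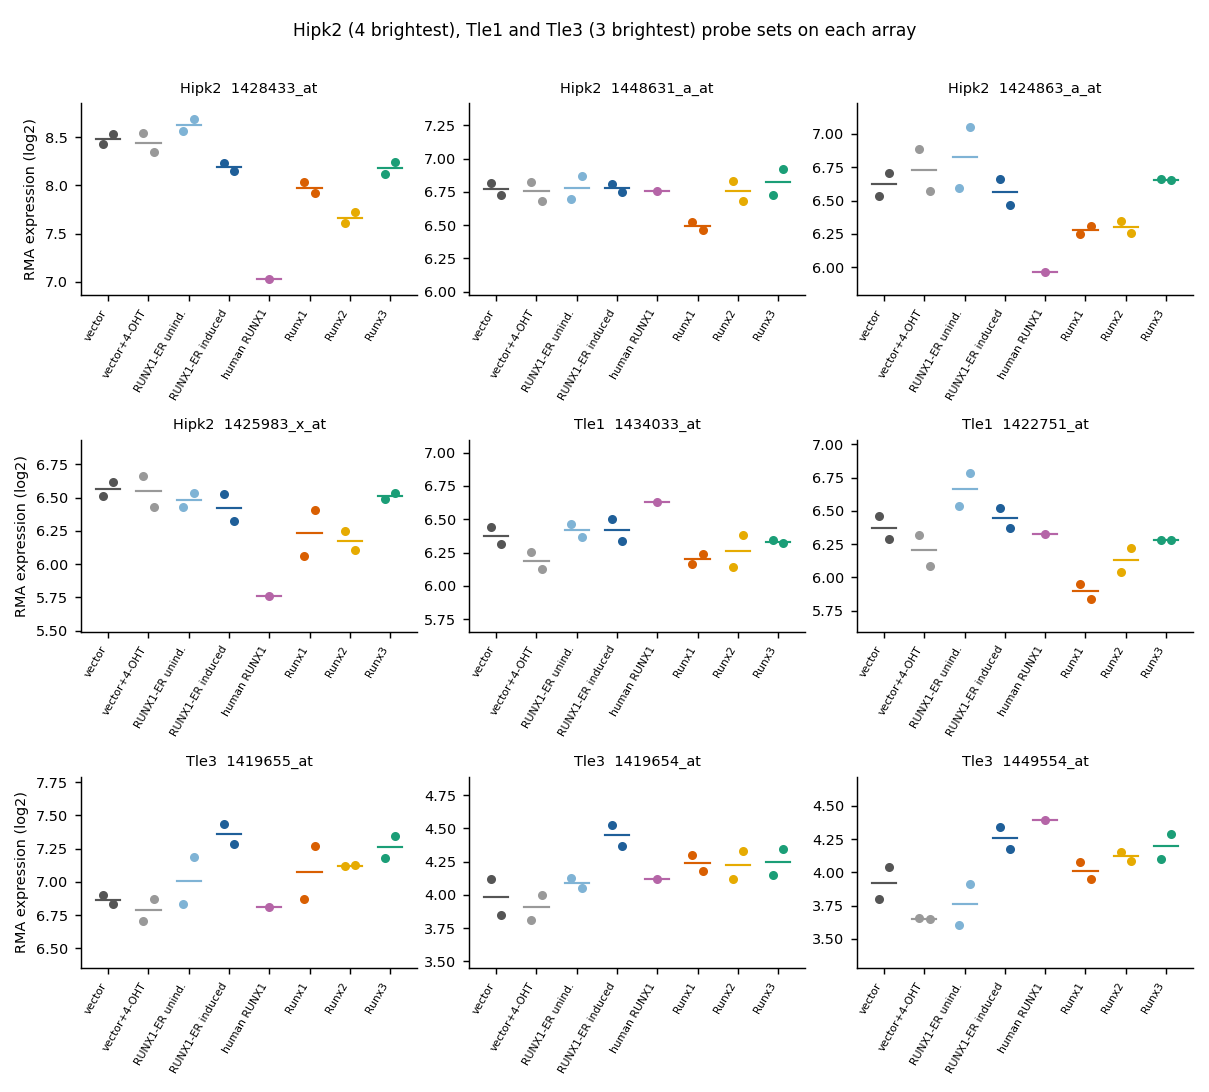
RMA log2 level of the 4 brightest Hipk2, both Tle1 and the 3 brightest Tle3 probe sets (y axis, range set per panel) on each of the 15 arrays by group (x axis), with a point per array and a bar at the group mean. Hipk2 1428433_at steps down from 8.48 in vector cells to 7.66 with Runx2 and 7.03 with human RUNX1, and Tle3 1419655_at is highest in induced RUNX1-ER cells at 7.36.

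**Figure D5:**
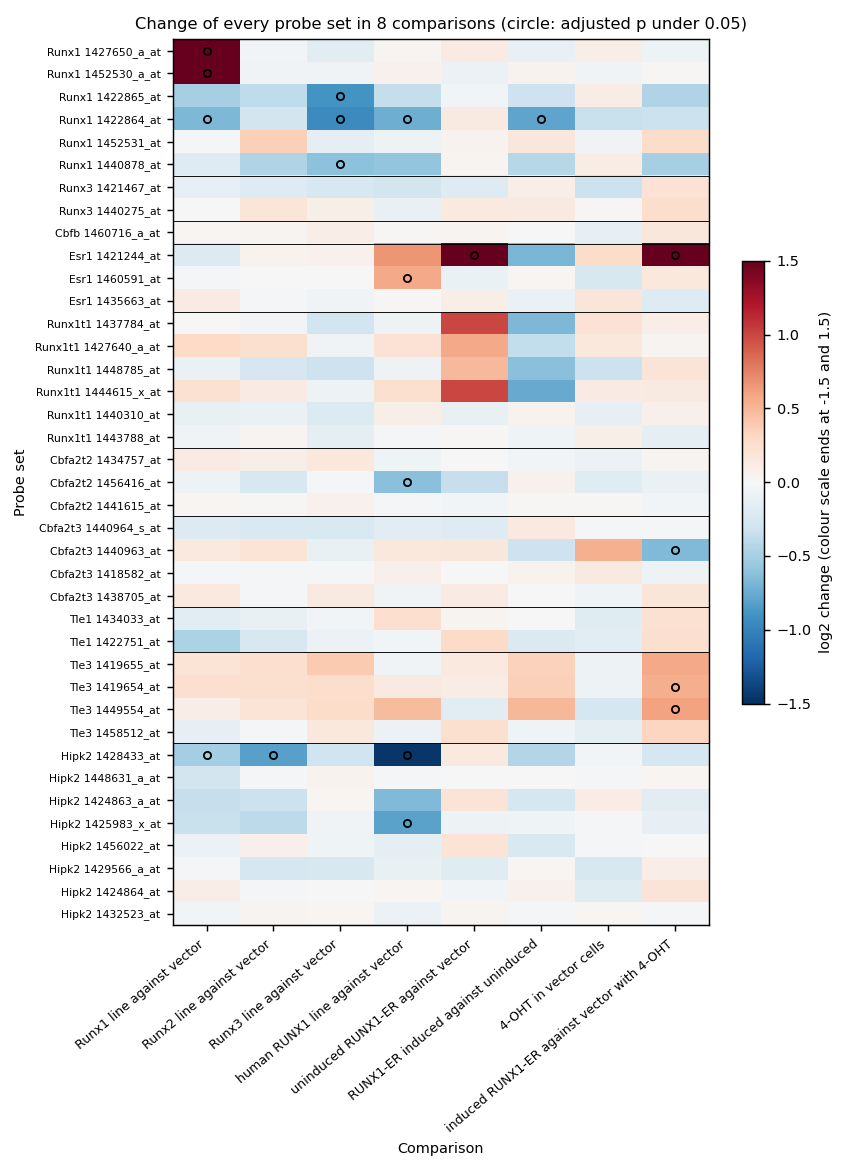
Log2 change of each of the 39 member probe sets (rows, grouped by gene) in 8 comparisons (columns), red for higher and blue for lower, with the colour scale ending at −1.5 and 1.5 and a circle where limma's adjusted p was under 0.05. The 19 circles fall mostly on Runx1, Esr1, Hipk2 and Tle3, and the column of 4-OHT in vector cells has none.

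Further genes known to work with Runx proteins or with ER tags were read in 6 lists, 73 genes in all, with each gene read from its brightest probe set and Stub1 standing in 2 lists. In the Runx1 line 1 of 73 was higher and 2 lower, in Runx2 0 and 2, in Runx3 2 and 4, and on the human RUNX1 array 2 and 5. Of all 18193 genes read in this way, 0.814% were higher and 0.610% lower in Runx1, 0.775% and 1.35% in Runx2, 3.26% and 4.57% in Runx3, and 1.73% and 3.96% on the human RUNX1 array. On induction 1 was higher and 2 lower, and against vector cells with 4-OHT 5 and 2, where 0.797% and 0.610%, and 2.05% and 0.874%, of all genes were called. The list medians in these comparisons ran from −0.14 on the human RUNX1 array to 0.07 in induced RUNX1-ER cells. Over all genes the medians of the same comparisons were −0.05 and 0.03, and over the 13396 brighter probe sets −0.11 and 0.06, close to those of the lists.

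Among 27 measured coactivators and DNA-binding partners, Cebpd, a C/EBP transcription factor gene, fell in each constitutive line. Its log2 changes were −0.99 in Runx1, −1.73 in Runx2, −2.34 in Runx3 and −1.86 on the human RUNX1 array (limma adjusted p from 7.55e-08 to 0.000873). It also fell on induction, by 1.01 on the log2 scale, and beyond 4-OHT by 1.07 (limma adjusted p = 0.000902 and 0.0159). Jun, an AP-1 subunit, fell by 1.12 in Runx2 and 1.59 in Runx3 (limma adjusted p = 0.00277 and 4.37e-05). Wwtr1, the coactivator TAZ, rose by 0.59 in Runx3, and Ets2, an ETS factor, fell by 0.65 on induction (limma adjusted p = 0.00437 and 0.0252). On the human RUNX1 array Lef1, a Wnt pathway factor, was higher by 0.70, and Smad1, a BMP signal transducer, changed by −0.66 (limma adjusted p = 0.00905 and 0.0423). In induced RUNX1-ER cells against vector cells with 4-OHT, Cebpd and Jun changed by −1.19 and −0.83 and Smad3, a TGF-β signal transducer, by 0.60 (limma adjusted p = 0.000174, 0.0188 and 0.00737).

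Of the 6 measured kinases, Pim1, which phosphorylates Runx proteins, rose by 0.80 in Runx1, 0.96 in Runx3, 1.68 on the human RUNX1 array and 0.61 on induction (limma adjusted p = 0.00204, 0.000105, 1.55e-05 and 0.0163). In induced RUNX1-ER cells against vector with 4-OHT it was higher by 0.53, and Cdk6, a cell cycle kinase that binds Runx1, by 0.48 (limma adjusted p = 0.0260 and 0.0312). Of 4 other Groucho family genes, Tle6 fell by 0.47 in Runx1 and 0.55 on the human RUNX1 array, Tle5 fell by 0.36 in Runx3, and Tle2 was higher by 1.06 in induced RUNX1-ER cells than in vector cells with 4-OHT (limma adjusted p = 0.0302, 0.0174, 0.0420 and 0.0215). Of 15 corepressors and histone enzymes, 1 was called against vector, Sin3a, a scaffold of a deacetylase complex, on the human RUNX1 array (log2 change −0.58, limma adjusted p = 0.0269). Of 11 chaperones and coregulators of the oestrogen receptor, 1 was called, Ncoa2, a receptor coactivator, with a log2 change of −0.66 in Runx3 (limma adjusted p = 0.0198). Of 11 genes for turnover of Runx proteins, Skp2, part of a ubiquitin ligase, changed by −0.87 on the human RUNX1 array and by 0.46 in induced RUNX1-ER cells against vector with 4-OHT (limma adjusted p = 0.00196 and 0.0432).

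The genes whose levels ran most like a member's over the 15 arrays are given by Pearson's r as a description, since all points share libraries and groups. For Hipk2 1428433_at they were Slc5a3 (r = 0.913), Sbsn (0.908) and Gclm (0.908). For Runx1 1422864_at they were Rab3ip (0.919), Kif21a (0.896) and Tob1 (0.883), and for Runx1 1440878_at Dock9 (0.944), Arf6 (0.942) and Reep3 (0.935). Runx1 1427650_a_at was closest to 4930483J18Rik (0.923), Cast (0.906) and Nupr1 (0.893), values that rest on the 2 Runx1 line arrays. Esr1 1421244_at ran most like Rsrp1 (0.902), Slf2 (0.882) and Klhl24 (0.858), and Runx1t1 1437784_at like Flcn (0.901), Tnfsf9 (0.895) and Clba1 (0.885). For Cbfb, whose whole range was 0.30, the closest were Ctu1 (0.897), Rcor3 (0.846) and Slc18b1 (0.816). Tle3 1419655_at was closest to Map7d1 (0.866), Gspt1 (0.855) and Piezo1 (0.852), and Tle3 1449554_at to Selenop (0.896), Sdc1 (0.873) and Itgb5 (0.867). The brightest probe sets of Runx3, Cbfa2t2, Cbfa2t3 and Tle1 had their closest genes at lower values, Galnt7 (0.702), Rnf138 (0.821), Foxf2 (0.762) and Gnptab (0.762).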

How the data were processed

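Gene expression was measured on 15 Affymetrix arrays in 8 groups, named by the sample titles. GCOS produced the raw data and RMA (Bioconductor affy) normalized them, per the labels, and the range of the deposited values fits a log2 scale. For versions and probe-set definitions: not given in the sources used here. The method draws the arrays towards a shared distribution, which can hide part of a shift of all RNA, and it compresses dim values.

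From these values limma 3.58.1 (R 4.3.3) was fitted with lmFit and eBayes, 1 coefficient per group over all 15 arrays (7 residual and 6.21 prior degrees of freedom). P-values are two-sided and adjusted by the Benjamini-Hochberg method over 45037 probe sets within each of 13 comparisons, with a threshold of 0.05. The 64 control probe sets of the manufacturer were left out. The human RUNX1 group has 1 array and was assumed to vary like the others. No array was identical to another. Replicates are numbered as biological, but no label speaks of separate cultures: the p-values may measure technical spread alone. Precision is limited by the small number of arrays. The fit was tested on simulated data.

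Of the tested probe sets, 34945 had 1 symbol, 932 several and 9160 none. Every member is named. Of each related list, with a gene read from its brightest probe set, up to 4 called genes per comparison with vector cells or of induction are named, those with the largest change, and the genes most like a member are the 3 with the highest r among probe sets with a mean above 5 and an SD of at least 0.2. The members and lists were chosen with earlier results of these data known. Alternatives were a fit on the compared arrays alone, the replicate number as a block, 2 ways of centring the arrays, a filter at a mean of 5, 2 forms of the prior variance, other vector controls, probe-set means per gene and leaving out each array.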

Additional observations from a re-analysis of the deposited data

Results flagged for a closer look

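Between constitutive lines, the test of the difference itself passed for 2 Runx1 probe sets high in the Runx1 line and for 3 other probe sets. For 1427650_a_at the log2 change against Runx1 cells was −4.59 with Runx2 and −4.71 with Runx3 (limma adjusted p = 2.50e-10 and 1.79e-10). For 1452530_a_at both values were −3.00 (1.02e-09 and 1.05e-09). Runx1 1422864_at differed between Runx3 and Runx2 cells by −0.68, with Runx3 arrays at 3.87 and 3.86 and Runx2 arrays at 4.49 and 4.60 (limma adjusted p = 0.0174). Hipk2 1428433_at was higher in Runx3 than in Runx2 cells by 0.52, with arrays at 8.12 and 8.25 against 7.61 and 7.72 (limma adjusted p = 0.0204). In both of these, between Runx3 and Runx2 cells, all arrays of one line lay on the same side of the other's, and each was lost when any of the 4 arrays was left out. The single human RUNX1 array differed from Runx1 cells by −4.52 on 1427650_a_at, −2.87 on 1452530_a_at, −0.95 on Hipk2 1428433_at and 0.59 on Esr1 1460591_at (limma adjusted p = 4.38e-09, 2.53e-08, 0.00307 and 0.0243), the last lost without either Runx1 array.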

How the results depend on the processing

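No called value changed direction under the alternatives; of 5681 member values under them 489 had another sign, none of them called and all at most 0.31 in size in the fit reported, and Cbfa2t3 1440963_at turned from 0.14 to −0.39 in Runx1, from 0.21 to −0.32 in Runx2 and from 0.16 to −0.37 on the human RUNX1 array against vector with 4-OHT. The fit reported had 29 calls (a probe set in a comparison). Of these 29, 28 were shared with a robust prior (28 calls in all there) and 28 with an intensity trend in the prior (36 in all). Centring arrays on the median of all probe sets shared 27 (28 in all), and centring on brighter probe sets 25 (30 in all). The filter at a mean of 5 shared only 10 of the 29 (18 in all). Fits of the compared arrays alone shared only 11 of the 29 (11 in all). In those small fits the member calls were 2 for Runx1 against vector, 1 for induced RUNX1-ER against vector with 4-OHT, and 0 for human RUNX1 against vector or Runx1, uninduced RUNX1-ER against vector, induction, and Runx3 against Runx2, and the Esr1 rise of 2.45 missed (limma adjusted p = 0.661). With only probe sets above a mean of 5, calls were 1 for Runx3, 3 for human RUNX1 and 0 for uninduced RUNX1-ER against vector, 2 for induction, 1 for induced RUNX1-ER against vector with 4-OHT, 1 for Runx2 against Runx1, 1 for Runx3 against Runx2 and 2 for human RUNX1 against Runx1; most members were not tested there. Induction had 2 calls with either centring and 5 with the trend, and uninduced RUNX1-ER had 3 with the trend and 3 against the mean of 4 vector arrays, the additions with the trend being Runx1t1 and, on induction, Hipk2. Against vector with 4-OHT, Runx3 had 5. Against vector without 4-OHT, a control added after seeing the data, induced RUNX1-ER had 2. With each array left out in turn, calls ran from 2 to 2 for Runx1, 1 to 2 for Runx2, 1 to 2 for Runx3, 2 to 4 for human RUNX1 and 0 to 2 for uninduced RUNX1-ER against vector, 0 to 3 for induction, 0 to 0 for 4-OHT in vector cells, 0 to 2 for induced RUNX1-ER against vector with 4-OHT, 0 to 1 beyond 4-OHT, 2 to 3 for Runx2 and for Runx3 against Runx1, 0 to 1 for Runx3 against Runx2 and 3 to 3 for human RUNX1 against Runx1. Runx1 1427650_a_at in the Runx1 line ran from 4.46 to 4.65 and Esr1 from 1.95 to 2.96. Whether the replicate numbers pair the samples was not settled. Deviations of same-numbered arrays correlated at −0.18 to 0.31 over 21 pairs of groups, 4 of them over 0.1, and 5 of 7 groups had a mean correlation above 0. With the replicate number as a block there were 28 calls, 26 of them shared, and induction had 2. Most members are dim, and their differences are compressed.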
